A study of Mus musculus with 4 samples.

Results

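Elastic fibre and microfibril genes were followed across 4 dual-colour expression arrays that compared odontoblasts, the cells that lay down dentin, with osteoblasts, the cells that lay down bone. The group consists of 10 genes, namely elastin (Eln), the fibrillins Fbn1 and Fbn2, the microfibril-associated proteins Mfap2, Mfap4 and Mfap5, and the fibulins Fbln1, Fbln2, Fbln5 and Efemp2. They were found by the gene name that the array files give for a probe, which returned 15 of 55681 probes. Of these, 14 probes passed the filter on dim spots, and all 10 genes kept at least 1 probe, among 19738 genes measured.

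Per the labels, each array held the RNA of primary odontoblasts from dental pulp, labelled with Cy5, and the RNA of calvarial osteoblasts from the bone of the skull vault, labelled with Cy3. Both came from matched donors, mice at the age of 2 weeks in which a 2.3 kb type I collagen promoter drives EGFP, and the strain C57BL/6 is given for the odontoblast channel. Cells were released by enzyme digestion and sorted for GFP, so both cell types were chosen by activity of the same collagen promoter. The number of animals per array is not stated, and p-values therefore measure only the spread between these 4 arrays, whose number limits the precision. Dyes were not swapped, so dye and cell type cannot be told apart.

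All ratios are log2 of Cy5 over Cy3 after background correction and loess normalization, so that values above 0 stand for a stronger odontoblast-labelled channel. Most markers of the cell types ran against these labels. Of 6 odontoblast markers 4 had negative means (list median -1.83), Wnt10a among them at -5.91, while Phex (0.38) and Cpne7 (0.29) lay above 0. All 8 osteoblast markers had positive means (list median 2.72), from Sp7 at 0.02 to Ifitm5 at 5.05. In the limma test described below, 1 odontoblast marker was called toward Cy3 and 3 osteoblast markers toward Cy5 (all features, 0.645% and 0.998%). Channels are therefore named below by dye and label. Exchanged labels would turn the sign of every ratio. The arrays differed among themselves, with correlations between arrays of 0.302 to 0.486 over all kept probes.

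An elastic fibre has a core of cross-linked elastin that is laid down on a scaffold of microfibrils. Microfibrils are strings of fibrillin to which small microfibril-associated proteins bind, and fibulins carry elastin to the scaffold together with the lysyl oxidases that cross-link it. In dental tissue, microfibrils without elastin are known as the oxytalan fibres of the periodontal ligament, whereas mineralised bone and dentin are built mainly on type I collagen.

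None of the 10 genes passed the test. Limma with Benjamini-Hochberg adjustment over 37383 features called 0 members in either direction at an adjusted p under 0.05, against a background of 1.64% of all features called (0.998% higher in Cy5 and 0.645% higher in Cy3). At an unadjusted p under 0.05 it listed 3 members, Mfap5, Fbln2 and Mfap4, all toward Cy5, where 19.0% of all features passed in either direction and 10.1% of all features toward Cy5. The same 3 genes lay above 0 on all 4 arrays, as did 15.7% of all features. No member lay below 0 on all arrays, as 14.8% of features did, and the other 7 had both signs. The median of the 10 mean ratios was 0.79, beside 0.01 over all genes.

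Whether members were called changed with the processing. With median centring of each array in place of loess, the median gene moved from 0.01 to 0.20, limma called 6.70% of features, and 3 members passed, Mfap5 (adjusted p = 0.0249), Mfap4 (adjusted p = 0.0263) and Fbln2 (adjusted p = 0.0297). All features called then numbered 2105 higher in Cy5 and 398 in Cy3, in place of 373 and 241.

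**Figure D1:**
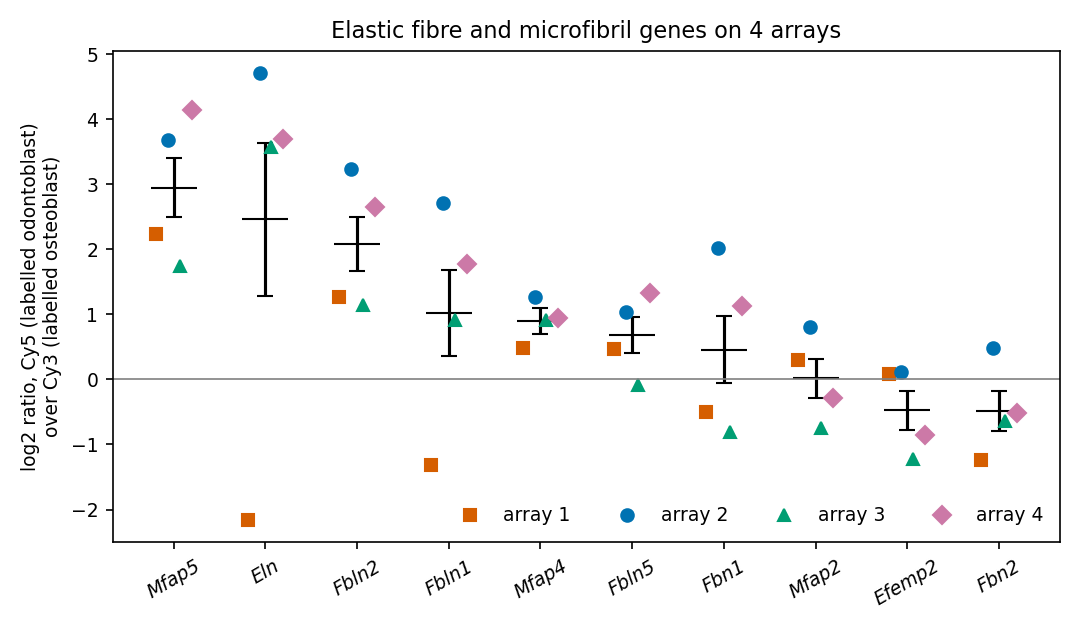
Log2 ratio of Cy5 (labelled odontoblast) over Cy3 (labelled osteoblast) on the vertical axis for each of the 10 genes, ordered by mean; coloured symbols are the 4 arrays, and black lines are the mean with its SE (n = 4). Mfap5, Fbln2 and Mfap4 sit above 0 on all arrays, and the Eln value of array 1 (-2.16) lies apart from the other 3 arrays (3.57 to 4.71).

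Elastin, the elastic core protein, varied more between arrays than any other member. Its probe lies on chromosome 5 at 135179129 to 135179188 on the reverse strand (mm9). Its ratios were -2.16, 4.71, 3.57 and 3.70 on arrays 1 to 4. Array 1 was low and had the opposite sign, and the other 3 arrays lay between 3.57 and 4.71. The mean of 2.46 ± 3.12 (SD, n = 4) was therefore not distinguishable from 0 (limma adjusted p = 0.327). Without array 1 the mean was 3.99 (adjusted p = 0.0561).

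The separate channels show where the Eln spread lay. In Cy5 the normalized signal of the Eln probe was 276, 19300, 6220 and 8680 on arrays 1 to 4, a 69.9-fold range. In Cy3 it was 1230, 737, 524 and 667, a 2.35-fold range. Both channels detected the probe well above background on every array, so the low Cy5 value of array 1 is a measured one. A ratio below -1 on array 1 with ratios above 1 on arrays 2 to 4 was found in 26 of 37383 features (0.0696%), Eln included. This pattern was taken from the Eln values themselves, so its share is a description and not a test. An SD at least as large as that of Eln was found in 35 features (0.0936%), Eln again included.

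The genes with the most similar set of 4 ratios were sought among 13897 named genes that all arrays detected in both channels. For Eln the nearest was Il1rn, the interleukin-1 receptor antagonist, at a root mean square difference of 0.46 (log2) over the 4 arrays, with ratios of -2.12, 3.93, 3.85 and 4.10. Next came Gbp2 at 0.76 and Gbp10 at 1.0. Array 1 was the lowest array for each of the 3, at -0.3 for Gbp10, which follows from choosing them by their likeness to Eln.

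**Figure D2:**
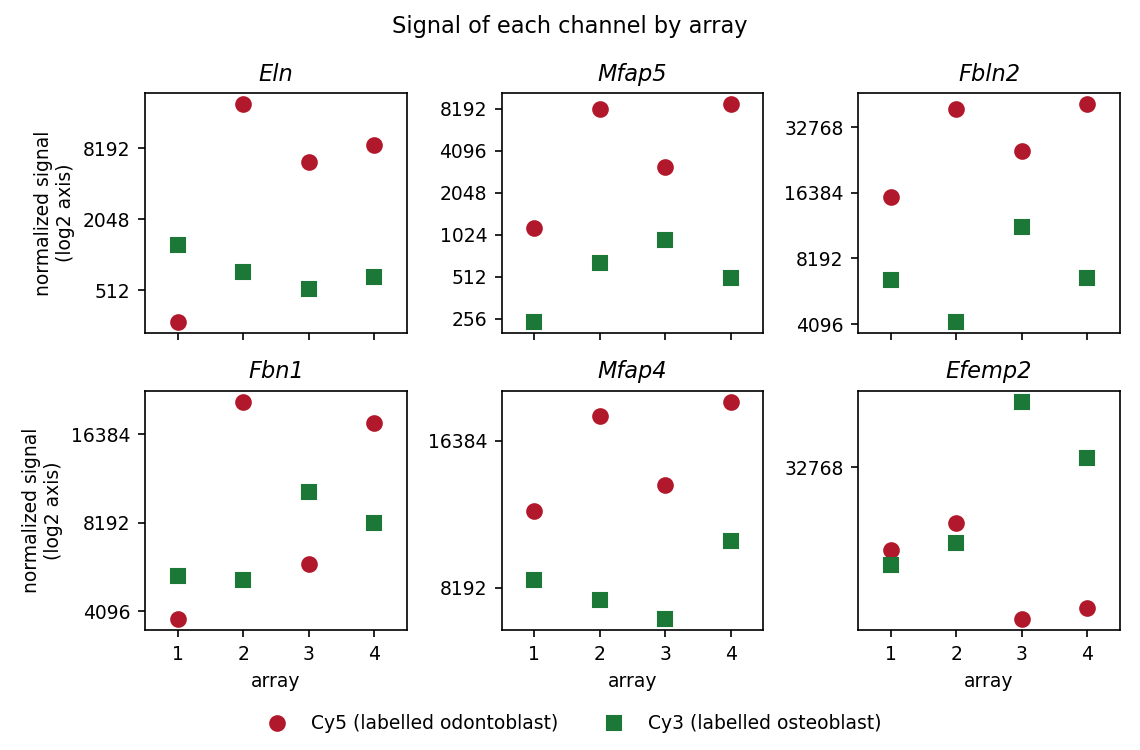
Normalized signal of each channel (vertical log2 axis, with a scale of its own in each panel) on arrays 1 to 4 for 6 genes; circles are Cy5 (labelled odontoblast) and squares are Cy3 (labelled osteoblast), 1 value per array. For Eln the Cy5 signal falls below Cy3 on array 1 only (276 against 1230), whereas for Mfap5, Fbln2 and Mfap4 Cy5 lies above Cy3 on every array.

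Smooth muscle is a main source of elastin in the body, and its markers were set beside this result. Of 9 smooth muscle markers 7 were measured, and their median ratios on arrays 1 to 4 were -0.23, 0.10, 0.03 and -0.20. The defining marker Myocd and the marker Lmod1 have 1 probe each, which did not pass the filter on dim probes, with Myocd detected on at most 1 array in either channel and Lmod1 on 0. The only call was Cnn1, a contractile protein gene, at -2.60 (adjusted p = 0.0335), toward Cy3. The summed signal of the list ranged from 41500 to 63100 in Cy5 and from 42500 to 69900 in Cy3 over the arrays, and its part in the Eln values was not tested. In sorted bulk RNA of this kind, fewer cells of a type and less RNA per cell cannot be told apart.

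Fibrillins form the microfibril itself. Fbn1 encodes fibrillin-1, the main fibrillin after birth, and its probe lies on chromosome 2 at 125126727 to 125126786 on the reverse strand (mm9). Its ratios were -0.50, 2.02, -0.81 and 1.13 on arrays 1 to 4, so that arrays 2 and 4 lay toward Cy5 and arrays 1 and 3 toward Cy3. The mean of 0.46 ± 1.34 (SD, n = 4) did not pass (adjusted p = 0.666), and without array 2 it became -0.06. The same split of signs, with arrays 1 and 3 below 0 and arrays 2 and 4 above, occurred in 4.04% of all features. In Cy5 the Fbn1 signal was 3840, 21100, 5920 and 17900, and in Cy3 it was 5410, 5220, 10400 and 8200. By the same measure of likeness the nearest genes were Serpina3g (0.34), Tm6sf1 (0.34) and Syde1 (0.40).

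Fbn2 encodes fibrillin-2, which is known mainly from embryonic microfibrils. Its brighter probe gave -1.24, 0.49, -0.64 and -0.52, with a mean of -0.48 ± 0.72 (SD, n = 4, adjusted p = 0.451). A second probe gave -1.0, -0.06, -0.93 and -0.42 on the same arrays, with a mean of -0.60 (adjusted p = 0.251 in a fit of all kept probes). Array 2 had the highest ratio on both probes, and the probes differed by at most 0.55 on an array. The ratio of Fbn1 exceeded that of Fbn2 by 0.94 ± 0.84 (SD, n = 4), with Fbn1 higher on 3 of 4 arrays (exact sign-flip permutation test, two-sided, p = 0.25, adjusted over 4 pairs 0.25). With 4 arrays the smallest p this test can give is 0.125.

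The microfibril-associated proteins included the member with the largest mean ratio. Mfap5 encodes MAGP-2, a small protein that binds fibrillin (probe on chromosome 6, 122478591 to 122478650, mm9). Its ratios were 2.23, 3.68, 1.75 and 4.15 on arrays 1 to 4, toward Cy5 on each. The mean of 2.95 ± 0.45 (SE, n = 4) corresponds to 7.73-fold more signal in the channel labelled odontoblast, and its adjusted p of 0.0523 lay just above the threshold. In Cy5 the normalized signal was 1140, 8190, 3130 and 8800, and in Cy3 it was 242, 639, 933 and 497. The lowest Cy5 value thus lay above the highest Cy3 value, but the share of all features with such a separation was not counted. Besides median centring, Mfap5 was called when detection was required in both channels of every array (adjusted p = 0.0433), with the mean over the probes of each gene (adjusted p = 0.0489), and with an intensity trend and robust moderation (adjusted p = 0.0499). It was not called in the other 7 settings or with any array left out, where adjusted p ranged up to 0.18.

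Mfap2 encodes MAGP-1, the close relative of Mfap5 with the same fibrillin-binding role. Its brighter probe gave ratios of 0.30, 0.81, -0.74 and -0.28 on arrays 1 to 4, and the mean of 0.02 ± 0.68 (SD, n = 4) was indistinguishable from 0 (adjusted p = 0.976). A second probe, 908 bases downstream, gave -0.17, 0.48, 0.32 and -0.49. The probes had opposite signs on arrays 1 and 3, and each had a mean close to 0. The second probe was much dimmer, with signals of 244 to 387 in Cy5 and 212 to 343 in Cy3. The brighter probe had 2700 to 5630 in Cy5 and 2240 to 6830 in Cy3. The Mfap2 ratio was below that of Mfap5 on all 4 arrays, with differences of -1.93, -2.87, -2.49 and -4.42. This difference reached the smallest p of the exact permutation test, 0.125 (adjusted 0.167).

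Mfap4 encodes a fibrinogen-domain protein that binds elastin and microfibrils (probe on chromosome 11, 61302147 to 61302206, mm9). Its ratios of 0.48, 1.26, 0.92 and 0.95 were the least variable of the group, at an SD of 0.32. The mean corresponds to 1.87-fold more signal in Cy5 (log2 0.90 ± 0.20 SE, n = 4, adjusted p = 0.110). In Cy5 the signal ran from 11800 to 19700 and in Cy3 from 7060 to 10200. The channels did not overlap, and the share of all features without overlap was not counted.

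The fibulins link elastin to the scaffold and to other matrix. Fbln2, an elastin- and basement membrane-binding fibulin, had ratios of 1.26, 3.24, 1.15 and 2.65, toward Cy5 on all arrays (probe on chromosome 6, 91222118 to 91222177, mm9). The mean was 2.08 ± 0.41 (SE, n = 4), or 4.22-fold, with an adjusted p of 0.0906. In Cy5 the signal was 15600, 39600, 25400 and 41600 and in Cy3 6510, 4190, 11400 and 6640. Every Cy5 value lay above every Cy3 value, but how many of all features show this was not counted.

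Fbln1 was measured by 3 probes that read different ends of the gene. Fibulin-1 is made in C and D forms, which differ in the last part of the protein because the transcript is spliced to different final exons. The file assigns 1 probe to the transcript ENSMUST00000109432 and the other 2, of which the nearer lies 33623 bases further downstream, to NM_010180. The sequences of the 2 probes that separate these ends are printed because they tell the transcripts apart. Both can be read through in the first frame, and the second ends in a stop codon, printed in capitals. They lie on chromosome 15 on the forward strand (mm9), at 85081927 to 85081986 and 85115550 to 85115609.
Fbln1 upstream-end probe, A_65_P08768: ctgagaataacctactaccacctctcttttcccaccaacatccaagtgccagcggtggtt
Fbln1 stop-codon probe, A_55_P2088601: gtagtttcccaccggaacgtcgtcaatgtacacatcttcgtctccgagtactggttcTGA

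The Fbln1 ends gave similar ratios on array 2 and differed most on array 1. The upstream-end probe gave 0.65, 2.62, 0.04 and 1.30 on arrays 1 to 4, above 0 on each. The stop-codon probe, the brightest of the gene, gave -1.31, 2.71, 0.91 and 1.78. On array 1 the upstream end thus exceeded the stop-codon probe by 1.96, and on array 3 it lay 0.87 below it. The remaining probe, 448 bases beyond the stop-codon probe, gave -0.02, 2.34, 0.76 and 1.56. It lay 1.29 above the stop-codon probe on array 1, although the file assigns both to the same transcript, and within 0.37 of it on the other arrays. This remaining probe was dimmer, with signals of 517 to 2310 in Cy5 and 456 to 761 in Cy3. The stop-codon probe had 2170 to 17200 in Cy5 and 2010 to 5380 in Cy3.

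Mean ratios of the 3 Fbln1 probes lay close together, at 1.15 ± 0.44 (SE) for the upstream end, 1.02 ± 0.66 (SE) for the stop-codon probe and 1.16 ± 0.41 (SE) for the remaining one. In the fit of all kept probes none of the 14 member probes was called, where 1.62% of probes were, and their lowest adjusted p was 0.0520 (Mfap5). At an unadjusted p under 0.05, where 18.8% of probes passed, the upstream-end and remaining Fbln1 probes and the second Fbn2 probe passed besides the 3 genes named above. The Fbln1 ratio by its brightest probe was below that of Fbln2 on all arrays, by 1.05 ± 1.04 (SD, n = 4) on average (exact permutation p = 0.125, adjusted 0.167).

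**Figure D3:**
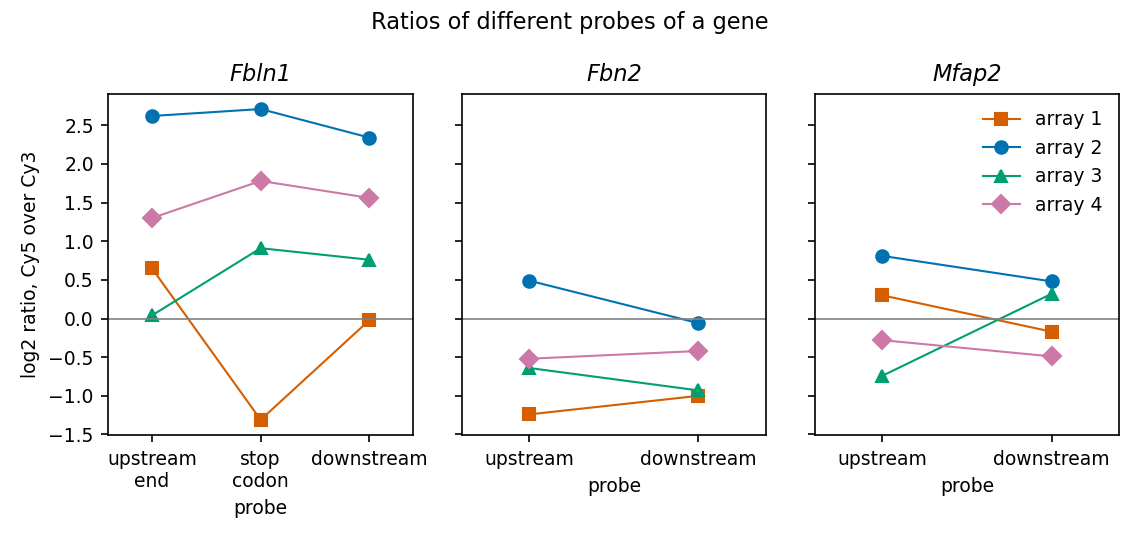
Log2 ratio of Cy5 over Cy3 (vertical axis) for the probes of Fbln1, Fbn2 and Mfap2, ordered along the transcript; each coloured symbol is 1 array, and lines join the values of an array. Array 1 has the largest gap between Fbln1 probes (0.65, -1.31 and -0.02), and the Fbn2 probes keep the same sign on arrays 1, 3 and 4.

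Fbln5 and Efemp2 encode fibulin-5 and fibulin-4, which are both needed for elastic fibre assembly. The bright Fbln5 probe (chromosome 12, 102988153 to 102988212, mm9) gave 0.47, 1.03, -0.09 and 1.33, a mean of 0.68 ± 0.28 (SE, n = 4, adjusted p = 0.273), with array 3 near 0. A second Fbln5 probe, 3275 bases further along, was not well above background in either channel on any array and gives no ratio. Efemp2 (chromosome 19, 5481762 to 5481821, mm9) had ratios of 0.09, 0.12, -1.23 and -0.86, near 0 on arrays 1 and 2 and toward Cy3 on arrays 3 and 4. Its mean of -0.47 ± 0.68 (SD, n = 4) did not pass (adjusted p = 0.438), and with median centring the sign turned, to 0.26. Fbln5 lay above Efemp2 on all 4 arrays, by 0.38, 0.92, 1.14 and 2.18 (exact permutation p = 0.125, adjusted 0.167).

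Start regions of 6 members were taken from the RefSeq promoter table (GRCm38.p6), with 11 starts among them. Eln, Mfap4 and Mfap5 had no start there. Fbn2 was left out of this search, whereas the windows of all genes were not restricted by chromosome. The 250 bases before each start were searched for motifs on both strands. The GC box (GGGCGG) was found in 8 of the 11 member windows and in 32.7% of all 32851 windows of this length, and the Smad element (CAGACA) in 4 of 11 and 17.1%. Member windows with a GC box held 58.8% to 78.8% G and C, and those without held 46.4% to 51.2%. The median of all windows was 52.4%, and the GC box shares were not compared at equal base content. Every Efemp2 window held a GC box. The letters of the TATA box (TATAAA, 12.4% of all windows), the Runx core (TGTGGT, 14.0%) and the AP-1 site (TGANTCA, 6.75%) were in none of the 11. Several starts belong to the same gene and some windows overlap. These are matches of letters only.

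Matrix cell markers varied across the arrays beside these genes. The median ratio of the 10 members was 0.19, 1.64, 0.41 and 1.23 on arrays 1 to 4, with 6, 10, 5 and 7 members above 0. Of 12 fibroblast and periosteum markers, all measured, 9 had a mean above 0, while Postn (-1.62) and Pdgfra (-1.05) lay below 0 on all arrays. Of the 12, 5 were called toward Cy5, as were 0.998% of all features, and 0 toward Cy3. Their median was 1.88, 3.25, 0.64 and 2.23 on arrays 1 to 4. Array 2 had the highest median in both sets. The summed signal of these markers ranged from 188000 to 279000 in Cy5 and from 66100 to 224000 in Cy3. Cartilage markers had medians of 0.75, 2.40, 1.12 and 0.56, with 3 of 9 called, and macrophage markers 1.58, 1.18, 3.16 and 0.87, with 2 of 8 called, all toward Cy5. Of the 8 macrophage markers 6 had a mean above 0, while Csf1r (-0.39) lay below 0 on all arrays. Of 6 dental epithelium markers 1 had a mean above 0, and the list median was -0.86. Among them Odam (-5.00) and Ambn (-3.05) were called toward Cy3, as were 0.645% of all features. The measured pericyte and endothelial markers had medians of 0.25 and 0.13 and no call. The part of these markers in the members' ratios was not tested.

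Other genes were taken from 6 lists, of which 5 hold genes that act with the elastic fibre and 1 holds 4 genes that share only a name with microfibril proteins. Of 65 gene names listed 60 were measured, and Adamtsl6 and Ctsv had 0 probes under these names. Of the 60, 5 were called toward Cy5 and 3 toward Cy3, in the fit where 1.64% of features were called. The median of the 60 was 0.22, beside 0.01 over all genes. Without array 1 limma called 0 of the 60 and 0 features in all, with 2888 features toward Cy5 and 2254 toward Cy3 at an unadjusted p under 0.05. Without array 2 it also called 0, with 3004 and 2684 features at that unadjusted level.

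Assembly and cross-linking proteins lay mostly toward Cy5. Of 18 measured, 16 had a mean above 0 (median 0.85), and 2 were called. Emilin2 (-1.79, adjusted p = 0.172) and Ltbp3 (-1.27, adjusted p = 0.169) lay below 0 on all arrays and were not called. Fn1 encodes fibronectin, on which fibrillin is deposited, and had ratios of 4.84, 5.15, 1.95 and 3.48 on arrays 1 to 4, a mean of 14.5-fold (adjusted p = 0.0476). This call was lost in 6 of 11 alternatives with all arrays, the deposited table among them (adjusted p = 0.0687), and with array 1, 2 or 4 left out. Efemp1, the fibulin-3 gene, was called toward Cy5 (adjusted p = 0.0440), but only 1 array detected it in Cy3, so the size of its ratio depends on the background treatment, with a log2 mean of 2.23 with an offset of 50, 3.06 with an offset of 0 and 3.61 in the deposited table. Bright uncalled members, among other cross-linking enzymes, were Lox (0.58, adjusted p = 0.432) and Loxl2 (0.44, adjusted p = 0.547). These are values of the brightest probe, and the lowest probe mean was -0.11 for Lox and -0.47 for Loxl2.

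ADAMTS and ADAMTS-like proteins of the microfibril went both ways. Of 10 measured, Adamtsl1 was higher in Cy5 (1.67 ± 0.22 SE, n = 4, adjusted p = 0.0377), but its 3 probes ranged from -0.97 to 1.67, and with the mean over probes it was 0.70 (adjusted p = 0.212). Adamtsl2, which binds fibrillin-1, was 4.49-fold higher in Cy3, with ratios of -2.10, -2.41, -2.87 and -1.27 (adjusted p = 0.0403). Bright uncalled members were Thsd4 (-2.22, adjusted p = 0.0896) and Adamts10 (0.63, adjusted p = 0.592), which both encode fibrillin-binding proteins. The list median was -0.22.

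Proteases able to cut elastin had a median of -0.19 over 10 measured genes. The cysteine protease Ctss was called toward Cy5 (adjusted p = 0.0316), but only 1 array detected it in Cy3. Its log2 mean was 2.65 with an offset of 50, 4.02 with an offset of 0 and 5.35 in the deposited table, where the call was lost (adjusted p = 0.0504). Ctss is also abundant in macrophages, whose markers are given above. Mmp14 (0.16, adjusted p = 0.668) and Mmp2 (-0.65, adjusted p = 0.292), both bright, did not pass. Of 10 receptor genes none was called (median 0.27), with the integrins Itgb1 at -0.73 (adjusted p = 0.131) and Itgav at -0.58 (adjusted p = 0.254).

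Growth factors that microfibrils bind or hold included the 3 calls with the smallest spread between arrays. Tgfb3 was higher in Cy5 at 1.45 ± 0.18 (SE, n = 4, adjusted p = 0.0327). Bmp2 had ratios of -3.18, -3.13, -2.66 and -2.30 on arrays 1 to 4, 7.04-fold higher in Cy3 (adjusted p = 0.0121), and Bmp7 was also higher there, at -4.57 (adjusted p = 0.00545). Of the 8 called companion genes, Bmp2 and Bmp7 were called in all 11 alternatives with all arrays, and the other 6 lost the call in 2 to 6 of the 11, or of the 10 in which Efemp1 and Ctss could be tested. With an array left out, Bmp7 lost its call in 2 of 4 cases and Bmp2 in 3 of 4. Tgfb2 (0.15, adjusted p = 0.826) and Gdf5 (0.15, adjusted p = 0.656), both bright, did not pass. The namesakes Mfap1a, Mfap1b, Mfap3 and Mfap3l had a median of 0 and no call, with Mfap1b at 0.01 and Mfap1a at 0.48.

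**Figure D4:**
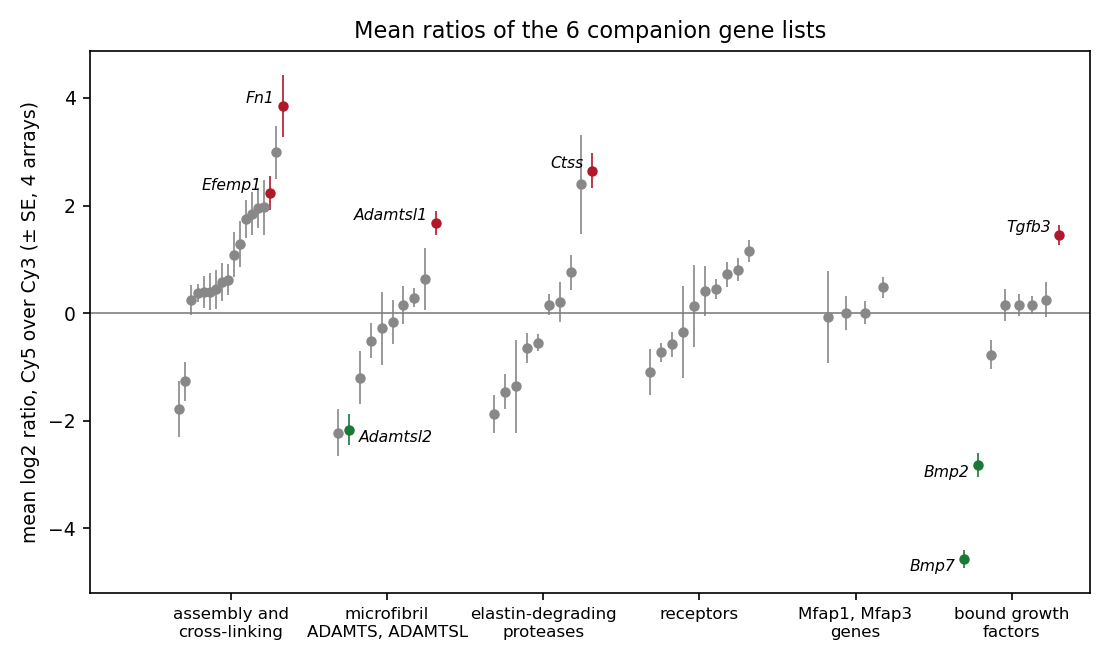
Mean log2 ratio of Cy5 over Cy3 with its SE over 4 arrays (vertical axis) for the 60 measured genes of the 6 lists, ordered within each list; red points were called toward Cy5, green toward Cy3 and grey were not called. The 8 called genes are named, with Fn1 (3.85) highest and Bmp7 (-4.57) lowest.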

How the data were processed

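Each of 4 arrays held RNA labelled as odontoblast (Cy5) and RNA labelled as osteoblast (Cy3). Per the file headers, the authors' deposited files come from Agilent Feature Extraction 10.7.3.1 and hold spot and background intensity values, processed intensity values and a log10 ratio; probe positions are on mm9. The deposited value table holds log10 values within 0.001 (log2) of that ratio for 99.4% to 99.5% of probes per array, with r of 1.00 and column medians of 0. Steps after scanning are not given in the sources used here.

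Intensities were corrected with normexp (offset 50), normalized by loess in limma 3.58.1 (R 4.3.3) with 3671 control spots at weight 0, and 949 outlier values were set to missing. No spot was saturated. Probes that 3 or more of the 4 arrays detected well above background in 1 and the same channel were kept (44260), and each gene was represented by its brightest probe. By accession 27235 probes were matched to RefSeq symbols. Mean ratios were tested against 0 by a two-sided moderated test (lmFit and eBayes), adjusted by Benjamini-Hochberg over 37383 features, and called at an adjusted p under 0.05. Channel signals are after loess and Aquantile normalization. The median signal was 7.10 to 8.21 times background in Cy5 and 10.9 to 16.0 in Cy3. Slide and scan were shared, so no batch could be tested.

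The members and lists were chosen with earlier results of these data known. Named companion genes are all called ones and up to 2 bright uncalled ones per list. Emilin2 and Ltbp3 are named besides these, as the assembly genes with a mean below 0. Alternatives covered background, normalization, filter, probe choice, moderation, the deposited table and each array left out.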

Additional observations from a re-analysis of the deposited data

Results flagged for a closer look

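The Eln ratio on array 1, -2.16, stood apart from the other 3 arrays. Its gap to the nearest array was 0.834 of the whole range of the 4 values, above Dixon's critical value for 4 samples. Chance gives such a gap in about 1 of 20 groups, and 26 groups of values were checked. The Cy5 signal of the same probe on that array was 276, against 6220 to 19300 on the others.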

How the results depend on the processing

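No further pairing was added to the test, because the 4 arrays form a single group and each ratio already pairs 2 RNAs. Members called toward Cy5 numbered 3 with median centring and 1 with both channels above background on all arrays, with the mean over probes, and with trend and robust moderation, in place of 0. With each array left out they numbered 0 to 0, and 0 members were called toward Cy3 in any setting. With both channels above background on all arrays, 338 of 29571 features were called toward Cy5. The mean over probes gave 401 such features, and trend and robust moderation gave 414. Companion genes called toward Cy5 numbered 11 with median centring, 3 with an offset of 0, with scale normalization and without a filter, and 1 with the scanner's processed signals, its own log ratio and the deposited table, in place of 5. All features called toward Cy5 numbered 2105 with median centring, 297 with an offset of 0 and 419 with scale normalization, in place of 373. Without a filter 278 of 46833 features were called toward Cy5, in place of 373 of 37383. The scanner's processed signals gave 231 such features, and its own log ratio and the deposited table gave 239 each. Companion genes called with each array left out numbered 0 to 2 toward Cy5 and 0 to 2 toward Cy3. The sign turned for Efemp2 with median centring (0.26), for Fbn1 without array 2 (-0.06), and for Mfap2 with the scanner's log ratio and the deposited table (-0.01 each), without array 1 (-0.07) and without array 2 (-0.24). With each array left out, Fbn1 ranged from -0.06 to 0.88, Mfap2 from -0.24 to 0.28, and the second Mfap2 probe, which turned without array 2 or 3 (-0.06), from -0.12 to 0.21. No other member or pair difference changed sign. Over the other settings with 4 arrays the Eln ratio ranged from 2.46 to 2.69 and that of Mfap5 from 2.95 to 3.23. Features called in all numbered 614, and 0 without array 1 or 2.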
